A study of Mus musculus with 23 samples.

Results

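The genes described here are 6 classical glucocorticoid-induced genes, *Fkbp5*, *Tsc22d3*, *Zbtb16*, *Sgk1*, *Pdk4* and *Errfi1*, together with *Nr3c1*, which encodes the glucocorticoid receptor. The name of the group rests on textbook knowledge, since no sample was given a glucocorticoid per the labels and no hormone level was used here. All 7 were found by NCBI gene identifier among the 21878 genes listed for sorted neutrophils and by symbol among the 55335 listed for whole lung. They were chosen from an earlier reading of these same libraries, and the comparison that prompted the choice is not recorded, so their values in every comparison are given as a description. An adjusted p printed for one of them places it in the fit of all genes and is not independent evidence.

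Bulk RNA-Seq was analysed in 23 mouse libraries from 3 experiments. In the tissue experiment, neutrophils were sorted as CD45+CD11b+Ly6G+ cells from lung, peripheral blood (PB) and bone marrow (BM) of WT mice, with 3 libraries per tissue. In the Piezo1 experiment the same sort was applied to lung and PB of WT mice and of *Piezo1*-cKO mice, with 2 libraries per group. In these cKO mice, Vav1-iCre removes floxed exons of *Piezo1*, which encodes a mechanically gated cation channel. *Vav1* is active throughout the hematopoietic system, so the deletion is not restricted to neutrophils. In the depletion experiment, whole lungs were taken from control mice and from mice depleted of neutrophils, with 3 libraries per group. The labels call the controls only WT and the others PMN (neutrophil) deletion, without a genotype for the latter or a treatment of the controls. Per the methods, depletion used an anti-Ly6G antibody against an isotype control, and the schedule that applied to the sequenced lungs is not given. The methods name young adult mice of either sex for the study in general and C57BL/6J for purchased mice, and some of its assays used younger animals. The age, sex and strain of the sequenced mice are not given library by library. The labels do not say whether libraries of a group came from separate animals, so the p-values measure the spread between these libraries, which may be technical.

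Glucocorticoids, corticosterone in the mouse, are steroid hormones of the adrenal cortex that follow a daily rhythm and rise with stress. The receptor is held in the cytoplasm by HSP90 and its cochaperones, moves to the nucleus when it binds hormone, and activates genes through a palindromic DNA element. Neutrophils carry the receptor, and the hormone is known to damp inflammatory transcription in myeloid cells and to change where neutrophils reside.

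The palindrome through which the receptor is known to act was searched in the 250 bases upstream of each RefSeq transcription start on GRCm38.p6. The element was written as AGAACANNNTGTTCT, which is 2 half-sites of 6 bases with 3 bases between them. A half-site is AGAACA, or TGTTCT when read from the other strand, so 1 search covers both strands and every palindrome also counts as 2 half-sites. Windows were matched by symbol for 5 of the 7 genes, with 13 windows for *Fkbp5*, *Tsc22d3*, *Sgk1*, *Pdk4* and *Errfi1*. The full palindrome stood in 3 of all 32851 windows, or 0.00913%, and 1 of those 3 belonged to *Sgk1*. A single half-site was common, in 16.1% of all windows and in 4 of the 13 windows of these genes. Of the other glucocorticoid-induced genes described further on, 22 of 25 had windows, of which 2 of 25 windows held a half-site and 0 held the palindrome. The *Sgk1* window at chr10:21993640-21993889, plus strand, is shown because it holds the palindrome, which begins 189 bases before the start, and capitals mark the half-sites.
Sgk1: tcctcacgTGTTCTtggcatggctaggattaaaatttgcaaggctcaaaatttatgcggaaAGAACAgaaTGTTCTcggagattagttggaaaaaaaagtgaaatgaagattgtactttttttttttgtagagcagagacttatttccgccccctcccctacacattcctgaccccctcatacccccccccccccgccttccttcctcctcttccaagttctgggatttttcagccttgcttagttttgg
The 1 half-site in the window of the outermost *Tsc22d3* start begins 185 bases before it and is shown with 12 bases on either side (chrX:140600690-140600719, minus strand), with the half-site in capitals.
Tsc22d3: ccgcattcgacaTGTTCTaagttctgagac
The *Fkbp5* window (chr17:28486150-28486399, minus strand) is shown for comparison because *Fkbp5* differed between genotypes, and it holds neither form, so all of its letters are lower case.
Fkbp5: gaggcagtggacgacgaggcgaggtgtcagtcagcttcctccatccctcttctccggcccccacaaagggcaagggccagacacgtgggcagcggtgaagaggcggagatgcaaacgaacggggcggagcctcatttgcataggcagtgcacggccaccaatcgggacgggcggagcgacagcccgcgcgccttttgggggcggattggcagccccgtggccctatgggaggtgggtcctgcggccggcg
A match is a description of these letters and not a binding site, and a window without one says only that the letters are not in it.

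The reads behind the FPKM values (fragments per kilobase of gene, scaled to the mapped fragments of the library, as deposited) could be recovered for the 17 sorted libraries, with every value whole within 0.05 reads. They ranged from 16502142 to 19330763 per library in the tissue experiment and from 9621002 to 15034628 in the Piezo1 experiment, where the lowest was *Piezo1*-cKO PB replicate 1. The depth of the whole-lung libraries is unknown. The summed level of 8 neutrophil markers was 43020 to 152300 FPKM in the sorted libraries of both experiments. It was 197.9 to 255.3 FPKM in control whole lung and 38.4 to 117.4 in depleted whole lung, without overlap. Of these 8 markers 6 were tested in whole lung and 0 were called. *Ly6g*, which encodes the antigen of the depleting antibody, was low and overlapped, at 0.0683 to 0.577 FPKM in control and 0.0 to 0.118 in depleted lungs. The targeted gene could not check the genotype labels, since *Piezo1* held only 8 and 8 reads in lung of WT mice and 4 to 7 in that of cKO mice, 5 and 5 reads in PB of WT mice and 3 to 10 in that of cKO mice, and FPKM over the whole gene does not separate the deleted exons. A gene was tested on log2(FPKM + 1) with limma if 3 or more of the libraries compared, or 2 or more in the Piezo1 experiment, had 1 FPKM. It was called if its adjusted p was under 0.05 and its log2 fold change larger than 1 in either direction, with 0.5 in place of 1 for whole lung. The median gene moved by -0.54 between lung and PB, -0.70 between lung and BM, -0.62 between WT lung and WT PB and -0.54 between *Piezo1*-cKO lung and PB. When FPKM were rescaled by the median ratio, the split of calls turned from 587 higher and 1476 lower to 936 and 510 for lung against PB, from 812 and 2965 to 1382 and 1467 for lung against BM, from 536 and 1893 to 884 and 755 for WT lung against WT PB, from 568 and 1644 to 910 and 615 for cKO lung against cKO PB, and from 51 and 13 to 45 and 35 for cKO against WT lung.

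Among neutrophils of WT mice, *Tsc22d3*, *Sgk1*, *Zbtb16* and *Nr3c1* had their highest level in blood, and *Errfi1* had its highest level in lung. *Fkbp5* differed little between the 3 tissues. *Pdk4* had 0 or 1 read in every sorted library.

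*Tsc22d3* (chrX:140539528-140600522) encodes GILZ, a leucine zipper protein that binds NF-κB and AP-1 and is a long-known direct target of the receptor. The PB libraries held 404.1, 413.7 and 356.4 FPKM, against 107.8, 104.9 and 106.9 in lung and 90.3, 90.0 and 90.1 in BM. Every PB library lay above every library of the other tissues, and lung lay above BM with no overlap. The log2 fold change was -1.86 (SE 0.07, adjusted p = 9.24e-08 by limma) between lung and PB, or -1.33 relative to the median gene, and 2.10 (SE 0.07) between PB and BM, and both were called. Between lung and BM it was 0.24, which was not called.

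*Sgk1* (chr10:21882184-21999903) encodes a kinase that acts on ion channels and on FOXO factors. It reached 50.9, 51.4 and 47.9 FPKM in PB, 27.3, 27.0 and 28.1 in BM and 17.9, 17.7 and 16.6 in lung. The 3 tissues did not overlap, in the order PB, BM and lung. Lung was called lower than PB, with a log2 fold change of -1.47 (SE 0.06, adjusted p = 1.28e-07 by limma), which was -0.89 and no longer called after rescaling. The differences from BM, -0.63 in lung and 0.84 in PB, were not called. Between lung and BM the median gene moved by -0.70. Over the alternatives *Sgk1* ranged there from -0.66 to -0.0016, with adjusted p up to 0.971 by limma, so the order of BM and lung depends on the scaling.

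*Zbtb16* (chr9:48651797-48836225) encodes PLZF, a zinc finger transcription factor whose transcript is a sensitive glucocorticoid target in many tissues. Its level was 5.75, 6.84 and 6.09 FPKM in PB, 3.92, 4.11 and 3.83 in lung and 1.33, 1.18 and 1.55 in BM. The tissues again did not overlap, now in the order PB, lung and BM. It was called higher than in BM both in PB, with a log2 fold change of 1.62 (SE 0.09), and in lung, with 1.07 (SE 0.08). Lung against PB gave -0.54, as did the median gene, and was not called.

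*Errfi1* (chr4:150853796-150868889) encodes MIG6, a feedback inhibitor of the EGF receptor. The lung libraries held 5.16, 5.93 and 4.47 FPKM, the PB libraries 3.88, 3.67 and 3.46 and the BM libraries 1.28, 1.57 and 1.24. Lung was highest and BM lowest without overlap, on 76 to 339 reads per library. The log2 fold change of lung against BM was 1.38 (SE 0.10) and was called. PB against BM gave 0.98, just under the threshold, and passed it with a pseudocount of 0.1 (1.37) or without PB replicate 3 (1.02) or BM replicate 2 (1.04). Lung against PB gave 0.40, which was not called.

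*Fkbp5* (chr17:28398753-28486149) encodes FKBP51, an HSP90 cochaperone that lowers the receptor's affinity for hormone and closes a short feedback loop. It stood at 29.7, 31.2 and 28.8 FPKM in PB, 26.7, 29.5 and 29.8 in BM and 24.0, 26.7 and 25.8 in lung. PB and BM overlapped, and lung was the lowest tissue by a narrow margin, with its highest library, at 26.66, just below the lowest BM library, at 26.71. No comparison was called. The log2 fold changes of lung, -0.22 against PB and -0.16 against BM, turned to 0.37 and 0.47 after rescaling.

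The receptor gene *Nr3c1* was present throughout, at 35.7, 35.5 and 33.7 FPKM in PB, 24.9, 26.1 and 26.5 in BM and 19.2, 20.0 and 19.8 in lung. The 3 tissues did not overlap, in the order PB, BM and lung. Lung against PB gave a log2 fold change of -0.80 (SE 0.05) and PB against BM 0.42 (SE 0.05), neither of which was called. Lung against BM was -0.38, and 0.25 after rescaling. *Pdk4* (chr6:5483351-5496278), which encodes a kinase that shuts off pyruvate dehydrogenase, had 0 or 1 read in each of the 9 libraries. For a library with 0 reads, a count of 0 allows up to 3 reads, which is 0.0449 to 0.0527 FPKM here, and this limit covers counting error only. It was not tested in sorted cells.

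In all, 2 of the 6 genes tested were called lower in lung than in PB and 0 higher, against a background of 19.5% of all genes called lower and 7.75% higher. Between lung and BM 2 of 6 were called higher and 0 lower, with 9.86% and 36.0% of all genes called higher and lower. From BM to PB 2 of 6 were called higher and 0 lower, against 7.85% and 14.1%. These 3 comparisons share their libraries and are not independent of each other. Marker sums moved with the BM libraries. The 8 neutrophil markers summed to 43020 to 47230 FPKM in lung, 56360 to 73060 in PB and 134200 to 152300 in BM, and 7 of 8 were called lower than in BM in lung and 6 of 8 in PB, with 1 called higher in each. The 6 alveolar macrophage markers summed to 47.98 to 66.1 FPKM in lung and PB and 2402 to 2530 in BM, of which *Chil3* alone held 2329 to 2465, and *Marco* was at most 0.0587 FPKM in each of the 9 libraries. Their part in the differences from BM was not tested. In bulk libraries, fewer cells of a type and less RNA per cell cannot be told apart. Lung cells were released by enzyme digestion while PB cells were not, per the methods, so tissue and preparation cannot be told apart either. Before the sort, PB and lung suspensions also passed a neutrophil negative selection kit, a step the methods do not name for BM. The comparisons with BM thus share this limit.

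**Figure D1:**
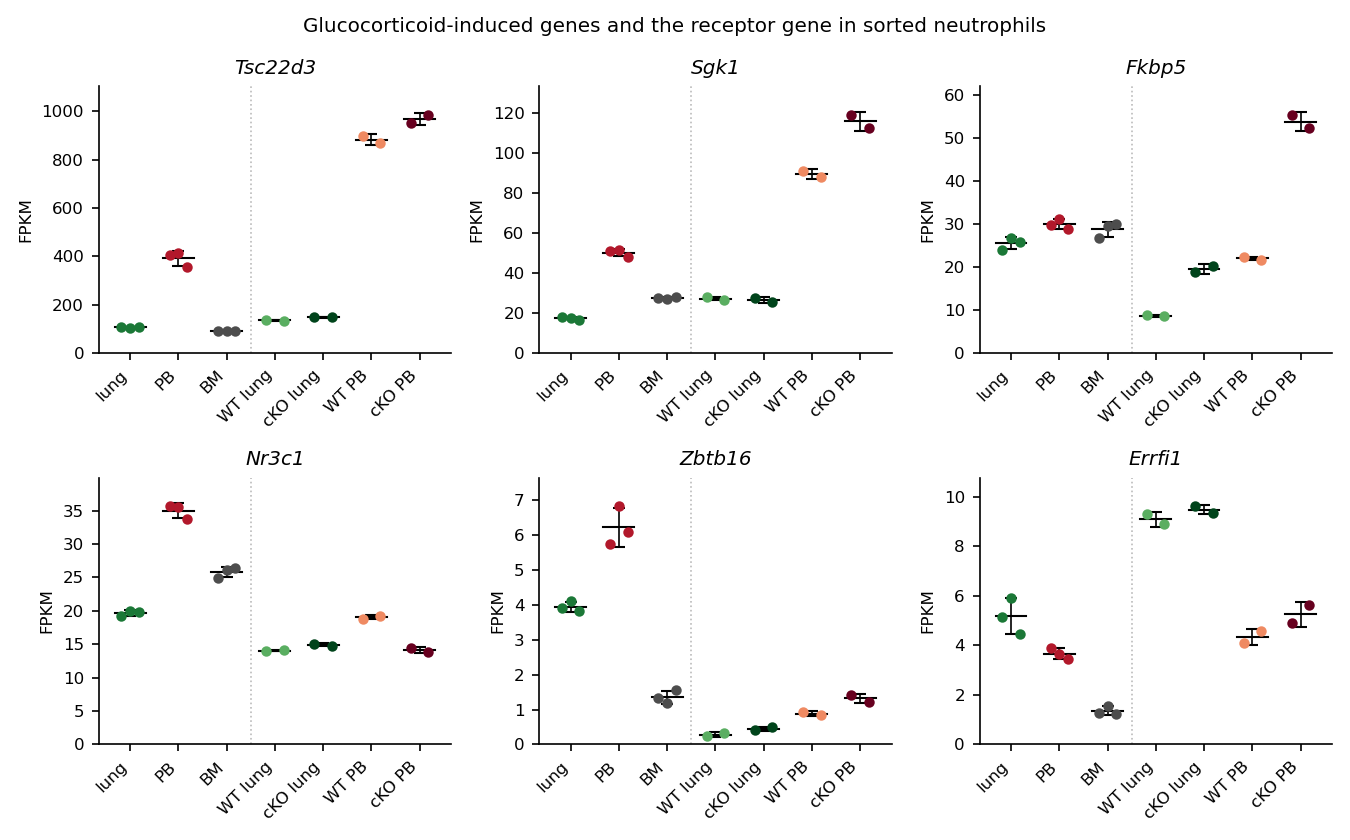
FPKM of 6 genes in each sorted library, with 1 panel per gene, points for libraries, horizontal bars for means and whiskers for the SD, and a dotted line between the tissue experiment and the Piezo1 experiment. *Tsc22d3* stands at 356.4 to 413.7 FPKM in PB against 90.0 to 107.8 in lung and BM, and *Fkbp5* stands at 52.2 to 55.4 FPKM in cKO PB, above every other group.

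The Piezo1 experiment repeated the contrast of lung and PB in other mice. *Tsc22d3*, *Sgk1* and *Fkbp5* were called lower in lung than in PB in WT mice and in *Piezo1*-cKO mice. *Errfi1* was the one gene with a higher level in lung in both genotypes. Its log2 fold changes, 0.92 (SE 0.08) in WT and 0.75 (SE 0.09) in cKO mice, were not called, and rescaling took both past the threshold, to 1.47 and 1.23.

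*Tsc22d3* reached 897.5 and 867.3 FPKM in WT PB and 137.1 and 133.4 in WT lung. In cKO mice it was 950.2 and 985.9 in PB and 146.6 and 149.6 in lung. PB was above lung in both genotypes by more than the whole range of either group, with log2 fold changes of lung against PB of -2.70 (SE 0.03, adjusted p = 5.57e-10 by limma) in WT and -2.70 (SE 0.04) in cKO mice. *Sgk1* stood at 90.9 and 87.7 FPKM in WT PB and 27.7 and 26.6 in WT lung, and in cKO mice at 119.0 and 112.2 in PB and 27.5 and 25.6 in lung. Its lung values overlapped between genotypes, whereas cKO PB lay above WT PB. The fold change of lung against PB was -1.68 (SE 0.04) in WT and -2.08 (SE 0.06) in cKO mice.

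Of the 5 genes tested in WT mice 3 were called lower in lung and 0 higher, against 26.5% and 7.5% of all genes. In cKO mice 3 of 6 were called lower and 0 higher, against 23.0% and 7.93%. After rescaling, *Fkbp5* lost its call in both genotypes, with -0.66 and -0.87. The values of 2 libraries per group rest on a variance shared across genes.

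*Fkbp5* carried the difference between genotypes. In lung it was 8.80 and 8.48 FPKM in WT and 18.7 and 20.3 in cKO mice, and in PB it was 22.2 and 21.7 in WT and 55.4 and 52.2 in cKO mice. In both tissues every cKO library lay above every WT library, and the 4 groups did not overlap. The log2 fold change of cKO over WT was 1.09 in lung (SE 0.07, adjusted p = 8.46e-05 by limma, place 37 of 6434 genes ranked by p) and 1.25 in PB (SE 0.06, adjusted p = 7.06e-05, place 11 of 7256). Rescaling left 1.00 in lung, just below the threshold of 1, and the call in PB held. No library decided either call, since *Fkbp5* was called with each of the 8 libraries left out in turn where it took part. The difference between the effects in lung and PB, -0.17 (SE 0.08, adjusted p = 0.129 by limma), was not called. The genotype comparisons of lung and PB have no library in common.

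The other genes moved less. *Tsc22d3* differed by 0.13 on the log2 scale in both tissues. *Errfi1* differed by 0.05 in lung and 0.23 in PB. *Zbtb16* was low here, at 0.228 and 0.335 FPKM in lung of WT mice and 0.411 and 0.494 in that of cKO mice, and at 0.926 and 0.830 in PB of WT mice and 1.41 and 1.23 in that of cKO mice, or 27 to 138 reads per library. Its cKO libraries lay above the WT libraries in both tissues. Only PB could be tested between genotypes, with a log2 fold change of 0.30 (SE 0.10) that was not called.

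*Nr3c1* and *Sgk1* differed between genotypes in PB but hardly in lung. *Nr3c1* was 18.8 and 19.3 FPKM in WT PB and 14.4 and 13.9 in cKO PB, a log2 fold change of -0.40 (SE 0.07, adjusted p = 0.00273 by limma). In lung it was 14.04 and 14.06 in WT and 15.1 and 14.7 in cKO mice, a difference of 0.08 that became -0.03 after rescaling. In cKO PB it thus overlapped WT lung, and WT PB stood above the other groups. *Sgk1* differed by 0.37 (SE 0.05, adjusted p = 0.00152) in PB and by -0.03 in lung, the latter with overlapping libraries. None of these reached the fold change threshold. The test of the difference between tissues gave 0.48 (SE 0.08, adjusted p = 0.00123) for *Nr3c1* and -0.40 (SE 0.07, adjusted p = 0.00276) for *Sgk1*, again below the threshold of 1. They took places 986 and 1448 of 7560 genes ranked by p, and 29.7% of all genes were higher and 18.5% lower at an adjusted p below 0.05 alone.

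Between genotypes 1 of 5 genes tested was called higher in lung, *Fkbp5*, and 0 lower, against 0.793% and 0.202% of all genes. In PB 1 of 6 was called higher, again *Fkbp5*, and 0 lower, against 1.68% and 1.97%. The difference of the genotype effects called 0 of 6 genes in either direction, where 4.29% and 2.57% of all genes were called higher and lower. At an unadjusted p below 0.05, 1 of 6 was higher and 1 lower, against 33.9% and 22.2% of all genes. *Pdk4* had 0 or 1 read in each of the 8 libraries, and the limit for a library with 0 reads was 0.0578 to 0.0903 FPKM.

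Sums of markers listed for other cells differed between genotypes in both tissues. The 6 alveolar macrophage markers summed to 71.95 and 73.05 FPKM in WT lung and 118.9 and 120.5 in cKO lung, and to 176.3 and 195.4 in WT PB and 288.5 and 296.0 in cKO PB. They were thus higher in every cKO library of both tissues, with 1 of 3 tested called higher in lung and 0 of 3 in PB. *Chil3* held most of these sums, at 58.6 to 59.6 and 100.8 to 101.1 FPKM in WT and cKO lung and 146.0 to 164.2 and 261.6 to 263.8 in PB. *Marco* and *Mrc1* were at 0 in both cKO groups. *Ear2* was higher in cKO mice in both tissues, and *Siglecf* was higher in cKO lung. In PB *Siglecf* was lower, at 21.07 to 22.3 FPKM in cKO against 25.7 to 26.02 in WT mice. Sorted BM neutrophils of the tissue experiment held 2329 to 2465 FPKM of *Chil3*, so these sums do not identify macrophages. Endothelial and B cell marker sums, none above 3.56 FPKM, were also higher in every cKO library of both tissues, and alveolar epithelial, adipocyte and fibroblast sums were lower. The part of these markers in the *Fkbp5* values was not tested. The summed level of 6 erythroid markers was 24.8 and 26.8 FPKM in WT PB and 1011 and 1136 in cKO PB, where 5 of the 5 tested were called higher. In lung the order was the opposite, with 5.11 and 5.12 FPKM in WT and 0.422 and 1.70 in cKO mice. The part of erythroid transcripts in the PB values was not tested. The summed neutrophil markers were 90070 and 93490 FPKM in WT lung and 68590 and 72960 in cKO lung, and 134000 and 137700 in WT PB and 111900 and 126900 in cKO PB, with 0 of 8 called in either tissue.

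Set side by side, the same sort gave other levels in the 2 experiments. Neutrophils of WT lung held 3.83 to 4.11 FPKM of *Zbtb16* in the tissue experiment and 0.228 to 0.335 in the Piezo1 experiment, and those of WT PB 5.75 to 6.84 and 0.830 to 0.926. *Fkbp5* in lung was 24.0 to 26.7 against 8.48 to 8.80 FPKM. *Tsc22d3* in PB went the other way, at 356.4 to 413.7 against 867.3 to 897.5 FPKM. The tables were processed separately, and experiment, mice and processing cannot be told apart, so no test was made across them.

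**Figure D2:**
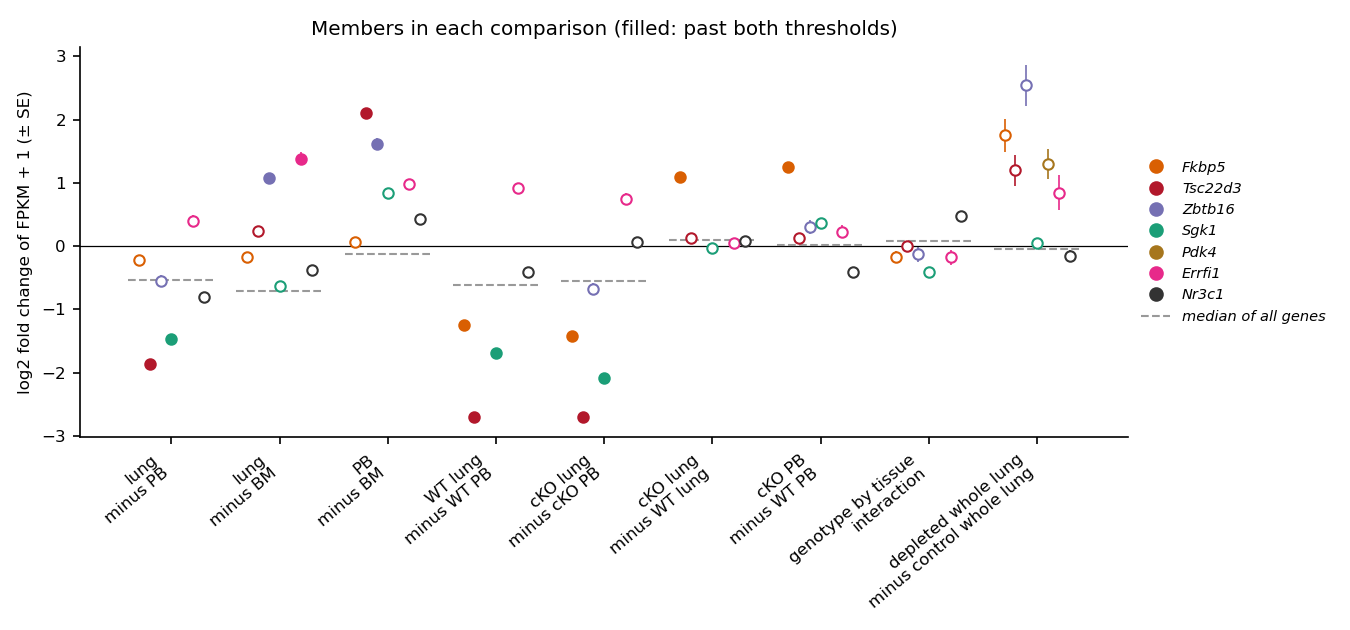
Log2 fold change of FPKM + 1 with its SE for the 7 genes in the 9 comparisons, filled where a gene passed both thresholds and with a dashed line at the median of all genes tested. *Fkbp5* is the one filled gene in the comparisons of genotype, at 1.09 and 1.25, and the depleted whole lungs show 5 open points between 0.84 and 2.54.

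In whole lung, 5 of the 7 genes had a higher level in every neutrophil-depleted library than in every control library. *Zbtb16* showed the largest difference, followed by *Fkbp5*, *Pdk4*, *Tsc22d3* and *Errfi1*. *Sgk1* and *Nr3c1* overlapped between the groups. None of the 7 was called by limma over the 13990 genes tested.

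*Zbtb16* was 2.80, 1.99 and 5.52 FPKM in control and 15.9, 29.3 and 27.6 in depleted lungs, a log2 fold change of 2.54 (SE 0.33, adjusted p = 0.0887 by limma, place 16 of 13990). *Fkbp5* was 2.13, 1.89 and 2.47 in control and 5.91, 11.0 and 13.5 in depleted lungs, with 1.75 (SE 0.26, adjusted p = 0.11). *Pdk4* was 2.30, 3.17 and 3.09 against 5.36, 10.7 and 10.1, with 1.29 (SE 0.24, adjusted p = 0.155). Groups did not overlap at any of the 3, and the gap was widest at *Zbtb16*. The sorted neutrophils of the other experiments held 0 or 1 read of *Pdk4*.

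*Tsc22d3* was 23.4, 28.5 and 46.2 FPKM in control and 63.6, 69.3 and 90.3 in depleted lungs, with a log2 fold change of 1.20 (SE 0.25, adjusted p = 0.178 by limma). *Errfi1* was 31.9, 49.99 and 66.1 against 71.2, 79.2 and 111.4, with 0.84 (SE 0.27, adjusted p = 0.327). Both groups were spread, with control replicate 3 the highest control library at *Zbtb16*, *Fkbp5*, *Tsc22d3* and *Errfi1*. Depleted replicate 1 was the lowest depleted library at all 5 genes. Replicate 2 lay above replicate 3 at *Zbtb16* and *Pdk4* and below it at *Fkbp5*, *Tsc22d3* and *Errfi1*. Neutrophil marker sums were 117.4, 87.8 and 38.4 FPKM in depleted replicates 1, 2 and 3, and their part in these levels was not tested. Without depleted replicate 1, *Fkbp5* (2.06, adjusted p = 0.0211) and *Pdk4* (1.58, adjusted p = 0.0365) were called by limma. In that setting 6 higher and 6 lower of 13808 genes were called.

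*Sgk1* was 27.7, 26.5 and 25.1 FPKM in control and 24.7, 28.7 and 28.8 in depleted lungs, a log2 fold change of 0.05 (SE 0.08). *Nr3c1* was 29.3, 26.0 and 24.7 against 22.5, 25.8 and 23.1, with -0.16 (SE 0.09). Neither gene separated the groups.

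Of all genes, 0.0% were called higher and 0.00715% lower, the latter being *Aqp5* alone, with a log2 fold change of -1.51 (SE 0.10, adjusted p = 0.0211 by limma). At an unadjusted p below 0.05, 5 of the 7 genes were higher and 0 lower, against 3.53% and 7.69% of all genes. With 3 libraries against 3, a two-sided exact permutation test of a single gene cannot go below 0.1. Markers of most other cell types overlapped between the groups. The summed adipocyte markers were 90.2 to 174.8 FPKM in control and 93.2 to 161.1 in depleted lungs, the muscle markers 85.4 to 149.7 against 106.5 to 133.6, and the alveolar epithelial markers 64520 to 99720 against 85700 to 92140. Endothelial, alveolar macrophage, erythroid and T and NK cell markers overlapped as well, whereas B cell markers (192.7 to 215.0 against 120.3 to 162.8 FPKM) and fibroblast markers (281.8 to 317.2 against 198.8 to 259.7) were lower in every depleted library. Their part in the result was not tested.

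**Figure D3:**
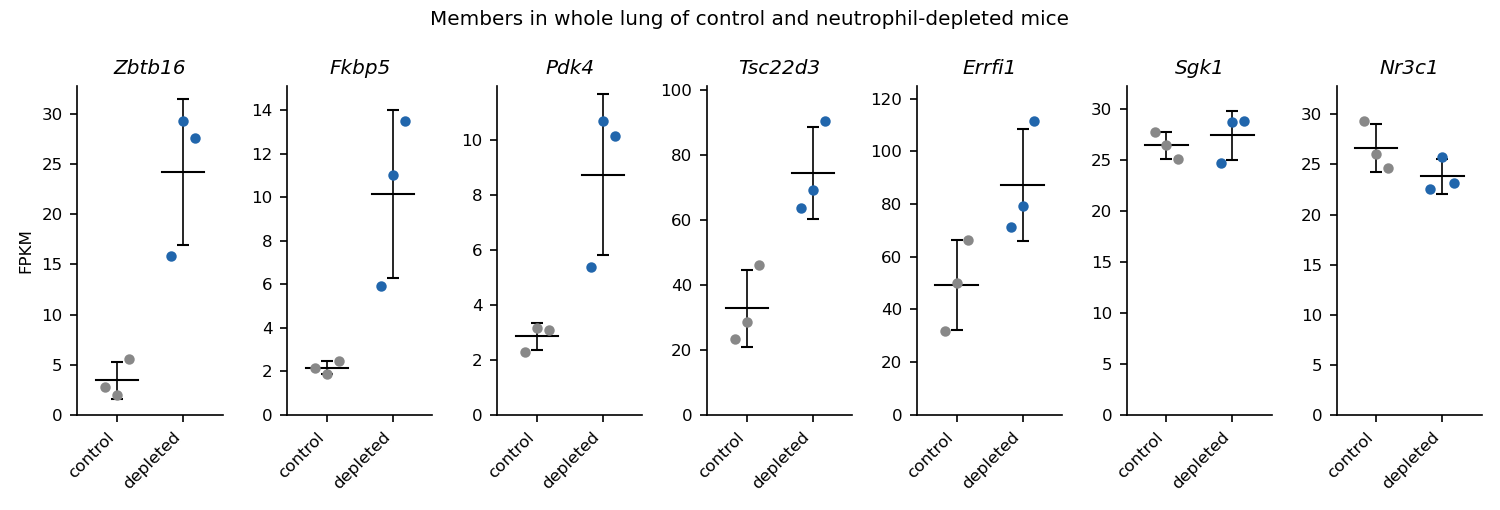
FPKM of the 7 genes in whole lung of control and neutrophil-depleted mice, with points for libraries, horizontal bars for the means and whiskers for the SD of 3 libraries, each panel starting at 0. The groups are apart for *Zbtb16*, *Fkbp5*, *Pdk4*, *Tsc22d3* and *Errfi1* and overlap for *Sgk1* and *Nr3c1*.

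Other genes of the pathway were read from lists chosen for their known roles, with earlier results of these data known. The lists are thus a description and not independent evidence. Their counts stand against the shares of all genes called higher and lower. These were 7.75% and 19.5% for lung against PB, 9.86% and 36.0% for lung against BM, and 7.85% and 14.1% for PB against BM. Lung against PB gave 7.5% and 26.5% in WT and 7.93% and 23.0% in cKO mice. Between genotypes they were 0.793% and 0.202% in lung, 1.68% and 1.97% in PB, and 4.29% and 2.57% in the difference. Of 25 further glucocorticoid-induced genes, 16 were tested between lung and PB neutrophils, of which 7 were called higher and 6 lower, with a median log2 fold change of 0.12 against -0.54 for all genes. The genes called higher, named after their values were seen, were *Cdkn1a*, *Ddit4*, *Il1r2*, *Mt1*, *Mt2*, *Nfkbia* and *Per1*, and those called lower were *Arrdc2*, *Cebpd*, *Irs2*, *Pik3r1*, *Rgs2* and *Txnip*. *Cdkn1a*, a cell cycle inhibitor, stood at 163.1 ± 3.28 FPKM in lung and 2.74 ± 0.44 in PB (SD, n = 3 each), and *Cebpd*, a myeloid transcription factor, had the lowest log2 fold change at -3.00. Genes of this list were thus called in both directions. Between lung and BM 8 of 16 were called higher and 4 lower, and between PB and BM 8 higher and 2 lower. In the Piezo1 experiment 6 of 15 were called higher and 6 lower between WT lung and PB, and 6 and 5 of 16 between cKO lung and PB. Between genotypes 0 of 15 were called in lung, with 5 higher and 6 lower at an unadjusted p below 0.05, against 39.0% and 18.4% of all genes. In PB 1 of 15 was called, *Cdkn1a*, lower in cKO mice with -1.66, and it was also the 1 of 16 called in the difference of genotype effects, with 1.52. None of these genes was called higher in cKO mice in either tissue, against 0.793% of all genes in lung and 1.68% in PB.

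In whole lung 23 of the 25 were tested and 0 were called. At an unadjusted p below 0.05, 14 were higher and 1 lower in depleted lungs, against the 3.53% and 7.69% of all genes, and the median log2 fold change was 0.43 against -0.04 for all genes. *Klf15*, a transcription factor of fasting metabolism, was 7.39, 7.62 and 13.8 FPKM in control and 27.5, 25.3 and 36.1 in depleted lungs, a log2 fold change of 1.57. *Klf9* and *Per1*, named after their values were seen, had 1.54 and 1.41. *Rgs2*, a regulator of G protein signaling, had the lowest value of the list, -0.43.

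Genes that handle the hormone were few in neutrophils, with 2 of 6 tested between lung and PB. *Hsd11b1*, the enzyme that regenerates active hormone from its inert form, was called higher in lung with 1.27, and *H6pd*, which supplies its cofactor, was called lower with -1.72. Against BM both were called lower in lung, and in PB against BM 0 were called higher and 1 lower, *Hsd11b1* with -2.93. In both genotypes of the Piezo1 experiment *Hsd11b1* was called higher and *H6pd* lower in lung than in PB, and 0 of 2 were called between genotypes. In whole lung 5 of 6 were tested, with 0 called and 0 at an unadjusted p below 0.05, from -0.11 at *Hsd11b1* to 0.16 at *H6pd*.

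Of the 8 receptor chaperones, all tested, 0 were called higher and 1 lower in lung against PB, *Ptges3* (p23) with -1.01, and *Hsp90aa1* was highest with 0.64. Against BM 1 was called higher in lung, *Hsp90aa1*, and 2 in PB, while 1 was lower in WT lung than in WT PB and 0 in cKO mice. Between genotypes 0 of 8 were called in either tissue or in the difference. In whole lung 0 were called and all 8 had values above 0, from 0.09 at *Bag1* to 0.39 at *Stip1*, with 3 higher and 0 lower at an unadjusted p below 0.05 against 3.53% and 7.69% of all genes. The receptor coregulators numbered 10, of which 9 were tested in lung against PB, with 0 called higher and 3 lower. *Ep300*, a histone acetyltransferase, was lowest with -1.60 and *Ncoa2* highest with 0.29. Against BM 3 of 9 were called lower in lung and 1 in PB, where 36.0% and 14.1% of all genes were called lower. In the Piezo1 experiment 2 of 6 were lower in WT lung and 1 of 7 in cKO lung than in PB, and *Ncoa3*, a p160 coactivator, was called higher in cKO than in WT lung with 1.02, with 0 of 6 in PB and a difference of effects of 1.42. In whole lung 0 of 10 were called and 0 passed an unadjusted p of 0.05, from -0.09 at *Ncoa1* to 0.12 at *Crebbp*.

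Inflammatory genes that the receptor is known to repress mostly had their higher level in lung when set against PB. Of 12 genes 9 were tested and 8 called higher, with a median of 2.73, from 0.08 at *Ccl2* to 6.40 at *Cxcl1*, a neutrophil chemoattractant that stood at 117.9 ± 6.45 FPKM in lung and 0.419 ± 0.278 in PB. Several of these genes are among those the study discusses for lung neutrophils, so the list is not independent evidence of its direction. Against BM 9 of 9 were called higher in lung and 7 of 8 in PB, where 9.86% and 7.85% of all genes were called higher. In the Piezo1 experiment 8 of 9 were called higher in lung in either genotype, the exception being *Ccl2*, with -0.72 in WT and -0.86 in cKO mice. Between genotypes 0 of 9 were called in lung, and 2 of 8 were called lower in cKO PB, *Cxcl2* with -1.47 and *Ptgs2* with -1.37, which were also the 2 of 9 called higher in the difference of effects. In whole lung 5 were tested and 0 called, with *Il1b* at -1.79 and *Ptgs2* at 0.31.

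Clock genes were read because several of them, *Per1* among these lists, are also hormone targets. Per the methods, animal experiments usually began in the morning, and the hour of each library is not given in the sources used here. Of 16 clock genes 6 were tested in lung against PB, with 2 called higher and 0 lower, from -0.67 at *Cry1* to 1.89 at *Per1*. Against BM 3 of 5 were called higher in lung and 1 of 5 in PB, and in the Piezo1 experiment 1 of 6 was higher in WT lung and 2 of 6 in cKO lung than in PB. Between genotypes *Per2* was called higher in cKO lung with 1.17 and *Ciart* lower in cKO PB with -1.09, and both were called higher in the difference of effects.

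In whole lung all 16 clock genes were tested and 0 were called, and at an unadjusted p below 0.05 8 were higher and 3 lower in depleted lungs, against 3.53% and 7.69% of all genes, with a median of 0.46. *Nr1d1*, a repressor of the clock loop, was 7.46, 7.24 and 26.1 FPKM in control and 25.5, 37.9 and 43.8 in depleted lungs, with the highest log2 fold change, 1.54. *Npas2*, an activator, had the lowest, -1.06, at 6.04, 4.88 and 3.86 against 2.72, 1.21 and 1.71. *Nr1d1* thus overlapped between the groups and *Npas2* did not. Control replicate 3 was the highest control library at *Nr1d1* and the lowest at *Npas2*. Depleted replicate 1 was the lowest depleted library at *Nr1d1* and the highest at *Npas2*. Among the glucocorticoid-induced genes, control replicate 3 was also the highest control library at *Zbtb16*, *Fkbp5*, *Tsc22d3* and *Errfi1*, but not at *Pdk4*. Depleted replicate 1 was the lowest depleted library at these genes and at *Pdk4*, but not at *Klf15*. The part of the clock in the values of the glucocorticoid-induced genes was not tested.

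The genes whose deposited GO annotation names glucocorticoids numbered 90. Of 51 tested 10 were called higher and 13 lower in lung against PB, with a median of -0.66, from -2.32 at *Pdcd7* to 6.23 at *Nr4a3*. Against BM 12 of 49 were higher and 11 lower in lung, and 7 and 4 of 48 in PB. In the Piezo1 experiment 11 and 9 of 47 were called between WT lung and PB. In cKO mice it was 11 and 6 of 49. Between genotypes 0 of 47 were called in lung, where 0.793% of all genes were called higher and 0.202% lower. In PB it was 0 of 44, against 1.68% and 1.97%, and in the difference 1 of 49, against 4.29% and 2.57%. In whole lung 0 of 67 were called, with 9 higher and 5 lower at an unadjusted p below 0.05, against 3.53% and 7.69% of all genes, and a median of 0.01, from -1.47 at *Nr4a1* to 1.41 at *Per1*.

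**Figure D4:**
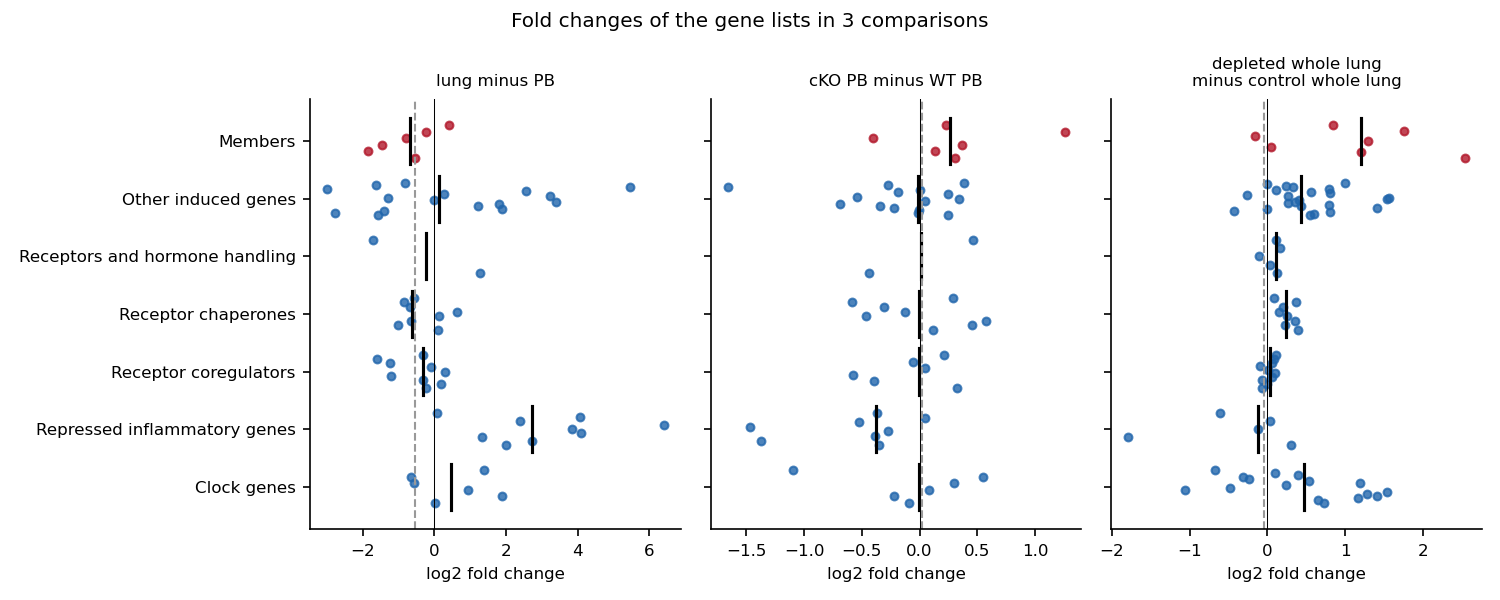
Log2 fold changes of the 7 genes (red) and of 6 gene lists (blue) in 3 comparisons, 1 point per gene tested, with a black bar at each median, a solid line at 0 and a dashed line at the median of all genes. In depleted whole lung the medians stand at 1.20 for the 7 genes, 0.43 for the other induced genes and 0.46 for the clock genes, and in cKO PB *Fkbp5* at 1.25 stands apart.

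Genes with the most similar profile were sought among 6228 genes by the root mean square difference of centred log2 levels over the 7 groups of sorted neutrophils, which come from separately processed tables. For *Fkbp5* these were *Sgf29* and *A430078G23Rik*, at 0.20 each, against a spread of 0.67 in its own profile. *Tsc22d3* was followed most closely by *P2ry12* (0.21) and *Mettl20* (0.23), against its own 1.19. *Sgk1* had *Glipr1* (0.12) and *Hsh2d* (0.13), against 0.82. *Zbtb16* had *Oat* and *Ccl6* (0.09 each), *Errfi1* had *Vamp2* (0.05) and *Cpeb2* (0.13), and *Nr3c1* had *Myo1d* (0.06) and *Dhx8* (0.07), against own spreads of 0.51, 0.50 and 0.25. None of these 6 genes was among the closest of another, and *Pdk4* was too low to be ranked. Of the 12 neighbours, *A430078G23Rik*, *P2ry12* and *Dhx8* kept their place both with a pseudocount of 0.1 and with rescaled FPKM, and *Myo1d* kept it only with the former.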

How the data were processed

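Neutrophils sorted from lung, PB and BM and whole lungs were profiled by bulk RNA-Seq (poly(A) selection; the labels name a SMARTER kit and the methods a VAHTS kit, and strandedness is not stated). The authors trimmed reads with fastp, aligned them to mm10 with HISAT2, counted them with HTSeq and deposited FPKM per gene and library; tool versions are not given in the sources used here. The authors' fold changes and p-values were not used. A symbol listed more than once was read from its row with the highest mean FPKM.

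From the FPKM, whole reads were recovered in the 17 sorted libraries for 100.0% of 21878 genes (tolerance 0.05 reads) and served for depth only. Limits for a count of 0 cover counting error only, since reads without molecular identifiers are not independent molecules. Each comparison was fitted on its own 2 groups, and the difference of genotype effects on the 4 groups of the Piezo1 experiment, with limma 3.58.1 in R 4.3.3 (trend and robust) on log2(FPKM + 1), with Benjamini-Hochberg adjustment over all genes tested. The pseudocount makes fold changes of low genes smaller than they are. Scripts were tested on simulated data. Sequences are from RefSeq (GRCm38.p6). In GENCODE vM21, exons of other genes shared 0 bases with those of the 7 genes.

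The members and lists (other induced genes, hormone handling, chaperones, coregulators, repressed inflammatory genes, clock genes, GO terms naming glucocorticoids, cell type markers) were chosen with earlier results of these data known. Named genes are the 7, the largest and smallest fold change of each list in lung against PB and in whole lung, and the 2 closest profiles per member. Further list genes, among them *Ncoa3*, *Cxcl2*, *Per2* and *Ciart*, were named after their values were seen, because they were called between genotypes. Alternatives were a pseudocount of 0.1, no filter, rescaled FPKM, the replicate block, all libraries in 1 fit, the adjusted p alone and each library left out. Single-cell and imaging data were not analysed here. Figures were drawn with matplotlib 3.10.9.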

Additional observations from a re-analysis of the deposited data

Results flagged for a closer look

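The test of the difference between the genotype effects in lung and PB neutrophils called 0 of the 6 genes tested. At the adjusted p alone 2 of the 6 passed. For *Nr3c1* the effect of cKO over WT was 0.08 in lung and -0.40 in PB on the log2 scale, a difference of 0.48 (SE 0.08, adjusted p = 0.00123 by limma), with both cKO PB libraries below both WT PB libraries. For *Sgk1* the effect was -0.03 in lung and 0.37 in PB, a difference of -0.40 (SE 0.07, adjusted p = 0.00276 by limma), with both cKO PB libraries above both WT PB libraries. Over the alternatives the differences ranged from 0.40 to 0.51 with adjusted p of 0.00123 to 0.00733 for *Nr3c1* and from -0.48 to -0.35 with adjusted p of 0.00119 to 0.0148 for *Sgk1*. Both are below the fold change threshold of 1, and they took places 986 and 1448 of 7560 genes ranked by p. At an adjusted p below 0.05 alone, 29.7% of all genes were higher and 18.5% lower in this test, so 2 of 6 is not particular to these genes. The erythroid marker sum, 1011 and 1136 FPKM in cKO PB against 24.8 and 26.8 in WT PB, moved with genotype in the same tissue. The alveolar macrophage marker sum was higher in cKO mice in both tissues, at 118.9 and 120.5 FPKM against 71.95 and 73.05 in lung and 288.5 and 296.0 against 176.3 and 195.4 in PB. Most of that sum was *Chil3*, which sorted BM neutrophils held at 2329 to 2465 FPKM, so it does not identify macrophages. Their part in these differences was not tested.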

How the results depend on the processing

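Of 582 values of the 7 genes under the alternatives, 535 kept their direction and side of the thresholds, 4 lost a call, 31 gained one and 12 changed sign. With rescaled FPKM the genes called numbered 1 instead of 2 for lung against PB and 0 instead of 1 for cKO against WT lung, and the signs turned for *Fkbp5* in lung against PB (0.37) and lung against BM (0.47), for *Nr3c1* in lung against BM (0.25), WT lung against WT PB (0.19) and cKO against WT lung (-0.0268), and for *Errfi1* in cKO against WT lung (-0.0482). Rescaling moves the median of all genes by construction. With the adjusted p alone, 6, 6 and 5 genes were called among lung, PB and BM (lung against PB, lung against BM, PB against BM), 5 and 5 between lung and PB in WT and cKO mice, 2 and 5 between genotypes in lung and PB, and 2 in the difference of genotype effects. Most of all genes tested between tissues passed it too, with 1209 higher and 5270 lower of 7577 in lung against PB. Against BM it was 1782 and 5846 of 8236 in lung and 2465 and 3558 of 8237 in PB. Lung against PB gave 1180 and 5180 of 7143 in WT and 1332 and 4722 of 7163 in cKO mice. Between genotypes it was 2249 and 1016 of 6434 in lung and 1920 and 1687 of 7256 in PB. In the difference 29.7% of all genes were higher and 18.5% lower. A pseudocount of 0.1 turned *Zbtb16* in the difference of effects to 0.0074, on few reads. With each library left out, the members called in whole lung ranged from 0 to 2. There were 2 without depleted replicate 1, where 6 higher and 6 lower of 13808 genes were called. *Sgk1* in cKO against WT lung ranged from -0.0832 to 0.0195, and *Tsc22d3* in the difference of effects from -0.0296 to 0.0235. The cause was not tested. Deviations from the group means were hardly correlated between libraries of the same replicate number (-0.084 to 0.075). With so few libraries per group, this cannot show whether such libraries came from the same animals. A replicate block left the members called in every comparison as they were, for example 2 for lung against PB and 1 for cKO against WT PB. Of 1402 counts of list genes under the alternatives, 142 moved by over 1.5 times. Over all genes, calls in cKO against WT lung went from 51 higher and 13 lower to 249 and 83 with a pseudocount of 0.1, and in PB from 122 and 143 to 316 and 356. In the Piezo1 experiment *Zbtb16* held 27 to 138 reads per library, *Pdk4* 0 or 1 and *Piezo1* 3 to 10.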

Other observations

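Several hormone and clock targets had very different levels in the same kind of cell between the experiments, which were processed separately and not tested against each other. *Per1* was 232.6 to 240.7 FPKM in lung neutrophils of the tissue experiment and 10.01 to 10.18 in WT lung neutrophils of the Piezo1 experiment, and 58.3 to 66.6 against 3.33 to 3.97 in PB. *Ddit4*, a stress-induced inhibitor of mTORC1, was 46.6 to 48.8 FPKM against 2.72 to 4.42 in lung, and *Per2* 14.5 to 15.6 against 2.30 to 2.59. *Il1r2*, a decoy receptor for interleukin-1, went the other way in lung, at 1044 ± 16.7 FPKM (SD, n = 3) against 3243 ± 28.1 (SD, n = 2). These genes were picked after their values were seen.

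*Ciart*, a repressor of the clock, held 41 and 47 reads in WT PB and 0 and 1 in cKO PB, whereas in lung it held 85 to 89 in WT and 131 to 139 in cKO mice. Its difference of genotype effects was 1.59 on the log2 scale and was called. *Nr1d1* held 0 to 3 reads in every sorted library, against 7.24 to 43.8 FPKM in whole lung.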
